A study of Mus musculus with 15 samples.

Results

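The 45 genes described here carry out mitosis and were chosen by name, from a list of mouse symbols. The choice was made with earlier results of these data known. They are 45 of the 55421 genes in the count files, each symbol matched 1 gene ID, and all 45 passed the filter on low counts in every comparison. They were read in CD4+ T cells recovered from Rag2-/- recipients, which have no T or B cells of their own, 6 weeks after the transfer of naive donor T cells, in a model in which the transferred cells cause colitis. The labels give the strain as C57BL/6, and every donor carried Prkaa1, which encodes AMPKα1, in floxed form. WT cells (PRKAA1fl/fl) carried no Cre, and KO cells also carried CD4-Cre, which is already active in CD4+CD8+ thymocytes and so deletes the gene before the transfer. T cells were sorted from 2 organs, spleen and mesenteric lymph node (mLN), which gave 4 samples of WT spleen, 4 of KO spleen, 3 of WT mLN and 4 of KO mLN. The samples come from 1 experiment, the WT mLN sample numbered 3 is not analysed here, and the labels give no age.

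At mitosis the cyclin-dependent kinase CDK1, bound to cyclin A or B, drives chromosome condensation and the building of the spindle. Kinesin motors and assembly factors shape the spindle, the kinetochore ties each chromosome to it, and the spindle checkpoint holds back the anaphase-promoting complex (APC/C) until every chromosome is attached. CDC20 then turns the APC/C on, separase cuts the cohesin between sister chromatids, and the cytokinesis proteins part the daughter cells. Most of these genes are transcribed in G2 and mitosis and are regulated by the DREAM and MuvB complexes, B-Myb and FOXM1. Their RNA in a T cell population thus depends both on how many of its cells are dividing and on how much RNA each of them holds.

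Each sample had between 9363940 and 11283439 reads on genes, and 58.4 to 63.4% of the uniquely aligned reads lay on no gene. Genes with at least 1 read numbered 28591 in WT spleen 2, the sample with the fewest reads, and 26002 in KO mLN 3. The other samples had 19414 to 24335, and the part of this difference in the results below was not tested. Prkaa1, which checks the labels, stood at 46.3 to 54.1 CPM (counts scaled to a total of 1000000 reads on genes) in WT spleen against 18.4 to 21.7 in KO spleen, and at 49.0 to 60.9 in WT mLN against 21.4 to 32.2 in KO mLN. The 12 T cell markers summed to 8868 to 11739 CPM. The 12 erythroid markers summed to 2053 CPM in WT spleen 3, 1020 in WT spleen 4 and 821 in WT mLN 4, against 21 to 164 CPM in the other samples. The 9 markers of neutrophils and their precursors summed to 175 to 634 CPM in spleen and 19.1 to 87.8 CPM in mLN, with Mpo at 0 in 3 of 4 KO mLN samples. The 2 CD8 T cell markers reached 18.9 to 28.2 CPM in KO mLN against 1.61 to 4.34 in KO spleen, 7.18 to 11.6 in WT mLN and 2.56 to 5.11 in WT spleen. The 5 NK cell markers were higher in KO without overlap in both organs, at 97.0 to 110 CPM in KO spleen against 51.2 to 74.2 in WT spleen and 82.2 to 124 in KO mLN against 44.2 to 59.2 in WT mLN. The 7 dendritic cell markers were at 30.3 to 46.3 CPM in KO mLN against 20.4 to 28.5 in WT mLN, with Clec9a and Cd209a at 3 counts or fewer in every sample. The 5 plasma cell markers summed to 51.1 to 144 CPM in KO spleen and 213 to 311 in KO mLN. In WT they summed to 53.8 to 194 CPM in spleen and 184 to 563 in mLN, with Mzb1 at 3 counts or fewer in every sample. The 9 monocyte and macrophage markers summed to 143 to 423 CPM in KO spleen and 86.4 to 109 in KO mLN. In WT they summed to 123 to 226 CPM in spleen and 53.9 to 243 in mLN. The part of these cells in the results below was not tested.

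The promoters show a feature that the choice of the genes did not use. RefSeq windows from 250 bases before to 50 bases after the start (GRCm38.p6) were found for 39 of the 45 genes. The last 20 bases lay in an annotated transcript of the gene for 39 of the 41 windows, all but those of Mad2l1 and Aurka. The Mad2l1 window (chr6:66534971-66535270) ends before the annotated start of the gene at 66535390, so it may miss the promoter. The CHR, the element bound by the DREAM and MuvB complexes, was searched as TTTGAA on both strands and was present in 32 of the 39 genes (82.1%), against 20.2% of all 27025 genes with a window and 14.8% of the genes with a mean of at least 10 counts here. Within 50 bases of the start it was present in 30 of the 39 (76.9%), against 5.72% of all genes. The NF-Y motif CCAAT was present in 29 (74.4%, against 41.1% of all genes), in 21 of them at least 2 times, and both motifs in 26 (66.7%, against 8.97%). An E2F motif (TTTGGCGC, TTTGCCGC, TTTCGCGC or TTTCCCGC) was present in 2, Cdk1 and Kif15 (5.13%, against 2.6%). Matches of different motifs shared bases in 1 gene, Cdca8. A match describes letters in the window and not a bound site.

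Windows are printed for 6 genes on which the results below turn: Ccnb2, with the highest level per length, Cdc20, Birc5 and Cenpa, higher in mLN in both genotypes, Espl1, lower in mLN in both genotypes, and Kif11, the one gene that passed the test between the genotypes. They are written 5′ to 3′ along the gene, with TTTGAA and CCAAT, or their reverse complements, in capitals. The windows lie at chr9:70421505-70421804 (minus strand, Ccnb2), chr4:118437294-118437593 (minus, Cdc20), chr11:117848987-117849286 (plus, Birc5), chr5:30666636-30666935 (plus, Cenpa), chr15:102296043-102296342 (plus, Espl1) and chr19:37376132-37376431 (plus, Kif11).
Ccnb2: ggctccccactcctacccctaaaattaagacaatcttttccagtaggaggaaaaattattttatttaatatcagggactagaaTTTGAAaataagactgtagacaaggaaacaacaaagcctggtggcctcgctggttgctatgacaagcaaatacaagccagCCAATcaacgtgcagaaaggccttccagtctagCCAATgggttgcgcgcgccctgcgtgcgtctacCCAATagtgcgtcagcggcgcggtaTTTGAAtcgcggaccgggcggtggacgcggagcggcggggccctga
Cdc20: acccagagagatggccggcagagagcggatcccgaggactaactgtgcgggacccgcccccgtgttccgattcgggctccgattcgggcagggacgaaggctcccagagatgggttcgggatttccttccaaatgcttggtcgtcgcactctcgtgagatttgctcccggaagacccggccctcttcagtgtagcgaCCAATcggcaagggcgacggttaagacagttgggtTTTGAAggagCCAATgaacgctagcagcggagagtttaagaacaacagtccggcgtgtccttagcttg
Birc5: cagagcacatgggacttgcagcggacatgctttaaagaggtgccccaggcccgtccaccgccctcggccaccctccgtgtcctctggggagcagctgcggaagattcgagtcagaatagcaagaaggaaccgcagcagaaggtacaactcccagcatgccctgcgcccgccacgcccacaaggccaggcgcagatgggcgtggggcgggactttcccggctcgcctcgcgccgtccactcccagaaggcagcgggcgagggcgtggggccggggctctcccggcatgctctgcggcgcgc
Cenpa: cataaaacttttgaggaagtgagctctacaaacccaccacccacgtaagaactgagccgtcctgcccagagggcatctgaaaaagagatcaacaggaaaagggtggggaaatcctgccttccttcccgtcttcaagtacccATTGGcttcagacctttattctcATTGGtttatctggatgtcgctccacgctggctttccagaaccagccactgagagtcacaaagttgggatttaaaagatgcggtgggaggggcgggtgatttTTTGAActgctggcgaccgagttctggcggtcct
Espl1: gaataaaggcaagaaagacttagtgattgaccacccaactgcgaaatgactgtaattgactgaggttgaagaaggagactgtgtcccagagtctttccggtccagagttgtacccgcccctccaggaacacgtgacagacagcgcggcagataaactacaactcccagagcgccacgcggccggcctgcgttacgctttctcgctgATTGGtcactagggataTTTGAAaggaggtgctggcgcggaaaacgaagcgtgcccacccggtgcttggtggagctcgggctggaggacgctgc
Kif11: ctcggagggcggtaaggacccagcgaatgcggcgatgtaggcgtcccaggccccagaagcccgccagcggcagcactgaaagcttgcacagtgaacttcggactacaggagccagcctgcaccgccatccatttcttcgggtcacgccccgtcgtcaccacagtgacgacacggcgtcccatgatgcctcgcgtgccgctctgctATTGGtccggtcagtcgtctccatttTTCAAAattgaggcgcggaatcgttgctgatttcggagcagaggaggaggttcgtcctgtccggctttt
Ccnb2 held 2 CHR and 3 NF-Y matches, while the Birc5 window held none of these letters, although Birc5 moved between the organs much like Cdc20. Espl1, which ran against most of the other genes, held a CHR and an NF-Y match close to the start as Kif11 did. Of the genes with a window, 14 of the 16 that rose in KO mLN (87.5%) and 18 of the other 23 (78.3%) held a CHR match, 13 (81.2%) and 16 (69.6%) an NF-Y match, and 13 (81.2%) and 13 (56.5%) both. These shares were not tested against each other.

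**Figure D1:**
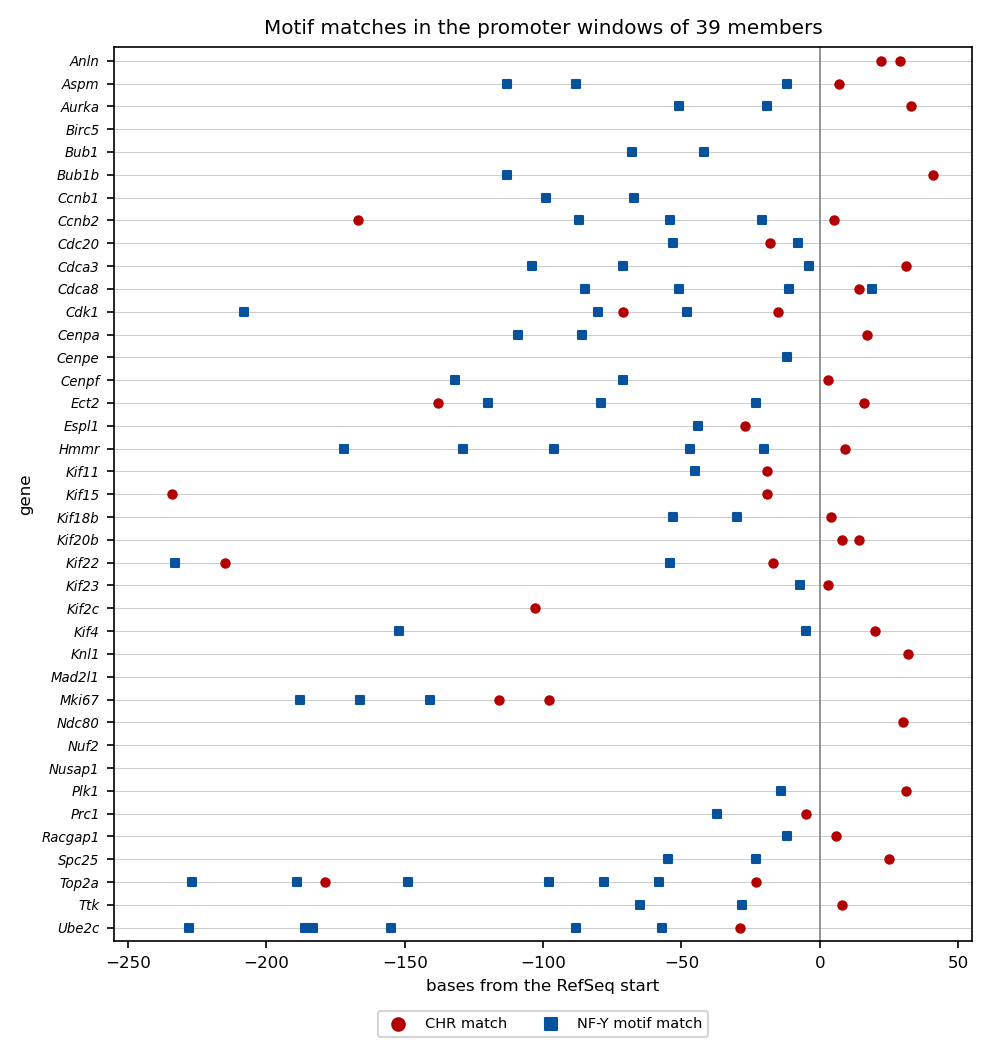
Positions of the CHR (circles) and NF-Y motif (squares) matches in the promoter windows of 39 mitosis genes, with the distance in bases from the RefSeq start on the x axis and 1 gene per row. CHR matches lie close to the start in 30 of the 39 genes, and Birc5, Mad2l1, Nuf2 and Nusap1 hold neither motif. The Mad2l1 window ends before the annotated start of the gene.

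Per kilobase of annotated exon, Ccnb2, a B-type cyclin, had the highest mean level over the 4 groups with 71.0 CPM per kb, followed by the centromeric histone Cenpa with 21.3 and Cdc20 with 20.2. Kif18b, a motor that shortens microtubule plus ends, was lowest with 0.523 CPM per kb and had 3 counts in its lowest sample, so that its values carry the largest counting error. The other 44 genes had at least 23 counts in every sample. For 10 of the genes an exon is overlapped by an exon of a gene on the opposite strand (12.5% of the exon length of Ccna2, 29.3% for Kif20a, 22.8% for Ube2c). Since the counting strand is not stated, reads from the partner cannot be told apart there. The highest count of the partner in any sample was 659 for Ccna2 (Exosc9) and 1528 for Kif20a (Cdc23), but only 1 for Ube2c (Tnnc2).

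Summed over the 45 genes, WT spleen samples 1 to 4 had 1519, 1759, 1496 and 1157 CPM and KO spleen samples 1 to 4 had 1578, 1382, 1368 and 1384 CPM. WT mLN samples 1, 2 and 4 had 1636, 1440 and 1524 CPM, and KO mLN samples 1 to 4 had 1957, 1713, 1745 and 2194 CPM. All 4 KO mLN samples thus lay above all KO spleen and all WT mLN samples, and KO mLN 2 and 3 lay just below WT spleen 2, the highest of the spleen samples. The mean of KO mLN was 1.33 times that of KO spleen and 1.24 times that of WT mLN, while WT mLN was 1.03 times WT spleen and KO spleen 0.963 times WT spleen. In sorted bulk RNA a larger share of dividing cells and more mitotic RNA per dividing cell cannot be told apart.

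WT spleen 4 had the lowest level of its group for 42 of the 45 genes and WT spleen 2 the highest for 33, KO spleen 1 the highest for 32, and KO mLN 4 the highest for 26. In WT mLN the ranks were mixed, with samples 1, 2 and 4 highest for 23, 11 and 11 genes and lowest for 7, 21 and 17. The median coefficient of variation of a gene was 21.3% in WT spleen, 12.2% in KO spleen, 11% in WT mLN and 21.7% in KO mLN. KO mLN had the highest group mean for 37 genes. The 8 exceptions were Knl1, Incenp, Espl1, Anln and Mki67, highest in WT spleen, Ect2, highest in KO spleen, and Cenpf and Aurka, highest in WT mLN.

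**Figure D2:**
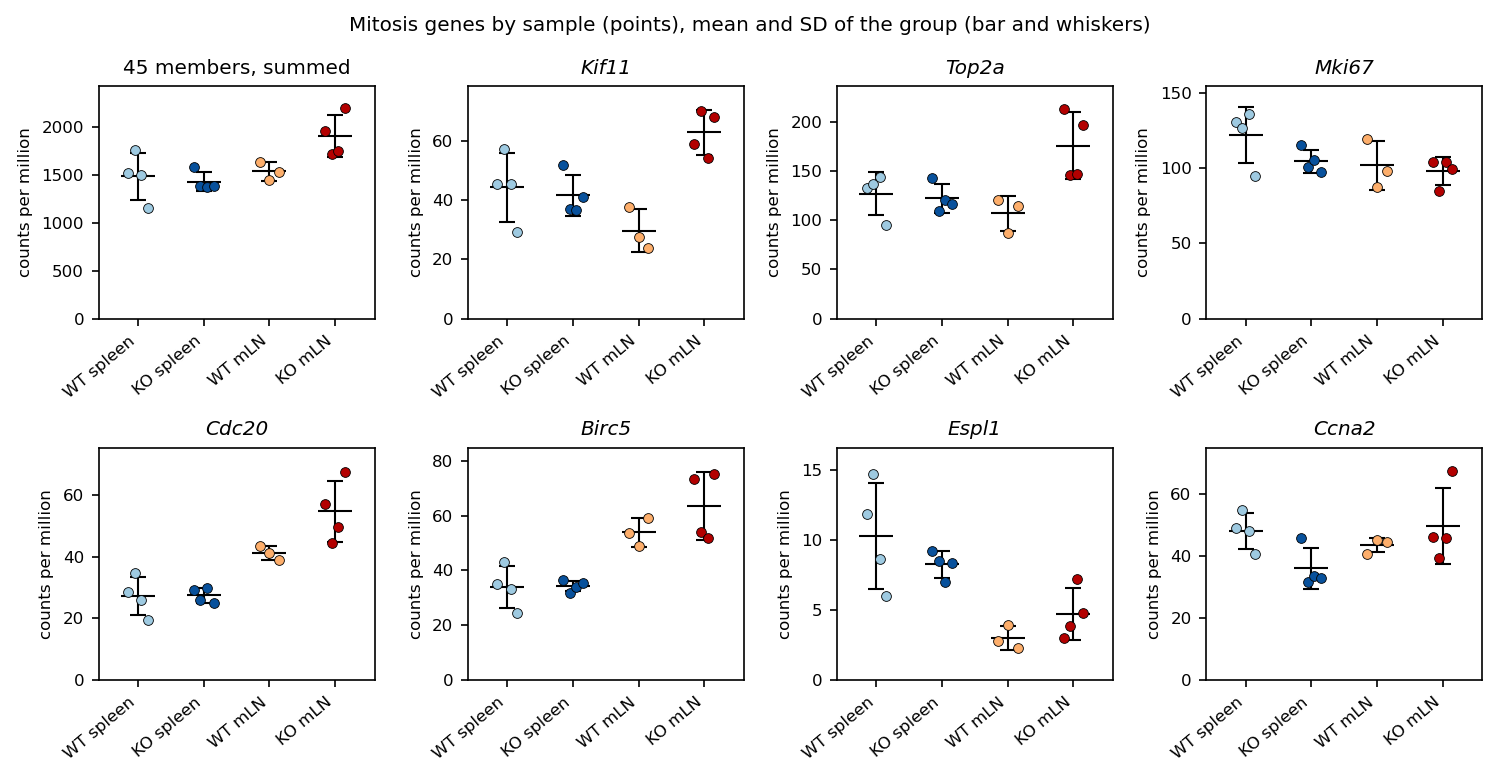
CPM (y axis, from 0) of the 45 mitosis genes summed and of 7 of them, with 1 point per sample, the group mean as a bar and its SD as whiskers. The mean of KO mLN stands above the other means for the sum, Kif11 and Top2a, with WT spleen 2 reaching into its range for the sum and Kif11, both mLN groups stand above both spleen groups for Cdc20 and Birc5, Espl1 runs the other way, and Mki67 overlaps between all groups.

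**Figure D3:**
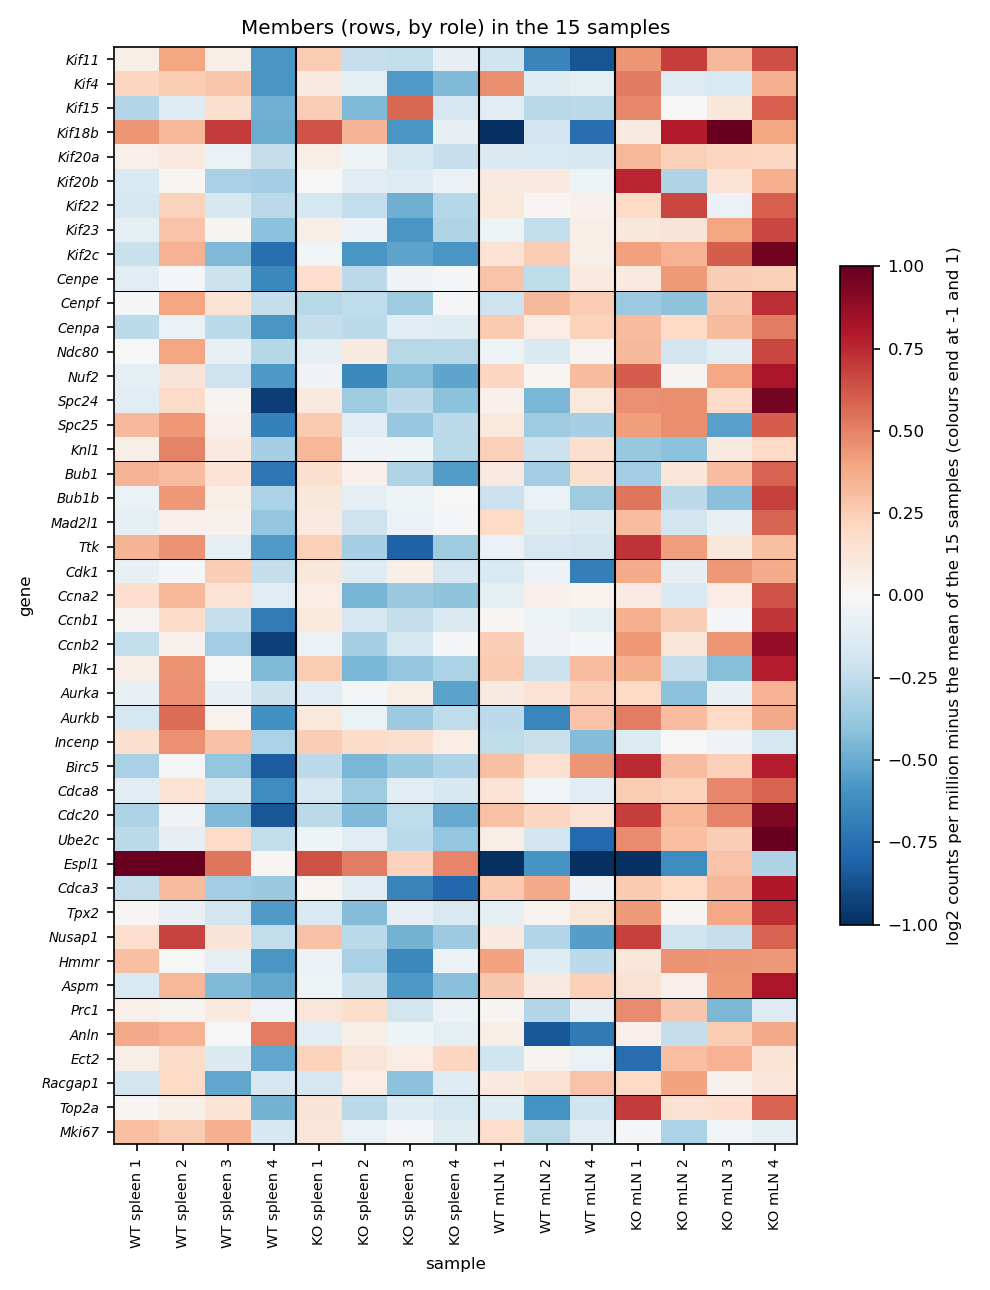
Log2 CPM of each mitosis gene (rows, by role) in each of the 15 samples (columns) minus its mean over the samples, from blue (lower) to red (higher). WT spleen 4 is low and KO mLN 4 high across most rows, and Espl1 is high in spleen.

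Between the organs in KO T cells, 22 of the 45 genes passed the test (edgeR quasi-likelihood test, Benjamini-Hochberg adjusted p under 0.05 over 14240 genes), 20 of them higher and 2 lower in mLN. Over all genes tested 25.3% were called, 11.4% higher and 13.9% lower. Of the 45 genes, 40 had a positive log2 fold change, with a median of 0.45 beside 0.01 over all genes. For 19 genes every KO mLN sample lay above every KO spleen sample, as 13.3% of all genes did, and for 1, Incenp, below, as 15.3% did. The genes with the smallest p were Cdc20, the activator of the APC/C, Birc5, the survivin subunit of the chromosomal passenger complex, the centromeric histone Cenpa, the microtubule-depolymerizing kinesin Kif2c, and Cdca8, borealin.

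Cdc20 was at 29.3, 26.0, 29.7 and 24.9 CPM in KO spleen and 57.1, 44.5, 49.8 and 67.5 CPM in KO mLN. In the WT cells it was at 28.6, 34.6, 26.1 and 19.6 CPM in spleen and 43.5, 41.1 and 39.1 CPM in mLN. The organs were apart in both genotypes, and the change of Cdc20 was 1.0 ± 0.13 (log2 ± SE, adjusted p = 0.000327) in KO and 0.64 ± 0.17 (0.0264) in WT. Birc5 was at 36.4, 31.9, 33.8 and 35.3 CPM in KO spleen and 73.4, 54.2, 51.7 and 75.2 CPM in KO mLN, and in WT at 35.0, 43.1, 33.3 and 24.6 CPM in spleen and 53.8, 48.7 and 59.3 CPM in mLN. Its change was 0.89 ± 0.14 (0.000754) in KO and 0.71 ± 0.17 (0.0178) in WT. Cenpa was at 103, 101, 112 and 112 CPM in KO spleen and 151, 139, 151 and 173 CPM in KO mLN, and in WT at 101, 116, 101 and 81.0 CPM in spleen and 145, 128 and 142 CPM in mLN. Its changes, 0.52 ± 0.08 (0.000932) in KO and 0.51 ± 0.12 (0.0172) in WT, were the closest of the 3 between the genotypes.

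Kif2c was at 13.4, 9.12, 9.51 and 9.13 CPM in KO spleen and 18.2, 17.4, 20.8 and 26.7 CPM in KO mLN, a change of 1.02 ± 0.18 (0.00212). In WT, Kif2c was at 11.7, 17.4, 10.1 and 8.12 CPM in spleen and 15.1, 16.3 and 14.3 CPM in mLN, where the groups overlapped. Cdca8 was at 34.1, 29.9, 35.5 and 34.2 CPM in KO spleen and 45.7, 44.9, 53.3 and 57.5 CPM in KO mLN, without overlap (0.59 ± 0.11, 0.0025), and in WT at 35.4, 42.2, 34.2 and 24.7 CPM in spleen and 42.2, 37.5 and 35.3 CPM in mLN.

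The 2 genes lower in KO mLN were Espl1, the separase that cuts cohesin, and Incenp, the scaffold of the chromosomal passenger complex. Espl1 was at 9.24, 8.49, 6.96 and 8.33 CPM in KO spleen and 2.97, 3.86, 7.23 and 4.82 CPM in KO mLN, where KO mLN 3 reached into the spleen range. In WT it was at 11.8, 14.7, 8.63 and 6.02 CPM in spleen and 2.77, 3.96 and 2.29 CPM in mLN, with no overlap. The changes of Espl1 were −0.81 ± 0.26 (0.0405) in KO and −1.73 ± 0.34 (0.00799) in WT. In KO it went against Cdc20, Ube2c and Cdca3. In WT it went against Cdc20 and Cdca3, while Ube2c also had a negative change (−0.14 ± 0.22, 0.71). Incenp was at 73.1, 70.2, 68.7 and 64.7 CPM in KO spleen and 55.9, 61.7, 60.2 and 54.6 CPM in KO mLN, lower in every mLN sample (−0.25 ± 0.08, 0.0363). Of the 22 calls, 15 were kept in all 8 fits that left out a sample, while Espl1 lost it in 7, Incenp in 6, Kif23 and Racgap1 in 5 each, Aurkb in 3, Kif20a in 2 and Top2a in 1.

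In WT T cells only 4 of the 45 genes passed the test between the organs, against 20.5% of all 14515 genes tested (9.7% higher and 10.8% lower), and these were Cdc20, Birc5 and Cenpa, higher in mLN, and Espl1, lower. All 4 were also called in KO in the same direction, as 100% of the WT calls and 18.2% of the KO calls, and the samples of the 2 comparisons are separate. The median change was 0.04, with 24 genes positive and 21 negative, and −0.09 without the 3 libraries rich in erythroid markers. The test between the organs did not use the replicate numbers. A fit with the replicate number as a block also left out WT spleen 3, which had no mLN sample of its number. In that fit 8 genes passed, the same 4 and Ccnb2 (0.49 ± 0.15, adjusted p = 0.0376), higher in mLN. The others were Kif11 (−0.48 ± 0.16, 0.0453), Incenp (−0.35 ± 0.11, 0.0404) and Anln (−0.83 ± 0.25, 0.0298), lower. Without WT spleen 3 and with no block, 3 genes were called (Cenpa, Birc5 and Espl1).

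The calls of Cdc20, Birc5 and Cenpa in WT rested on few samples. Without WT mLN 1, or without WT mLN 4, none of the 3 passed (2 genes called without WT mLN 1, Espl1 and Anln, and 1 without WT mLN 4, Espl1), and Cdc20 also lost its call without WT spleen 1, WT spleen 3 or WT mLN 2. Without the 3 libraries rich in erythroid markers (WT spleen 3 and 4 and WT mLN 4), the changes were 0.46 for Cdc20, 0.43 for Birc5 and 0.37 for Cenpa (adjusted p = 0.102, 0.117 and 0.113), and Espl1 was called alone (−1.95, adjusted p = 0.0103).

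**Figure D4:**
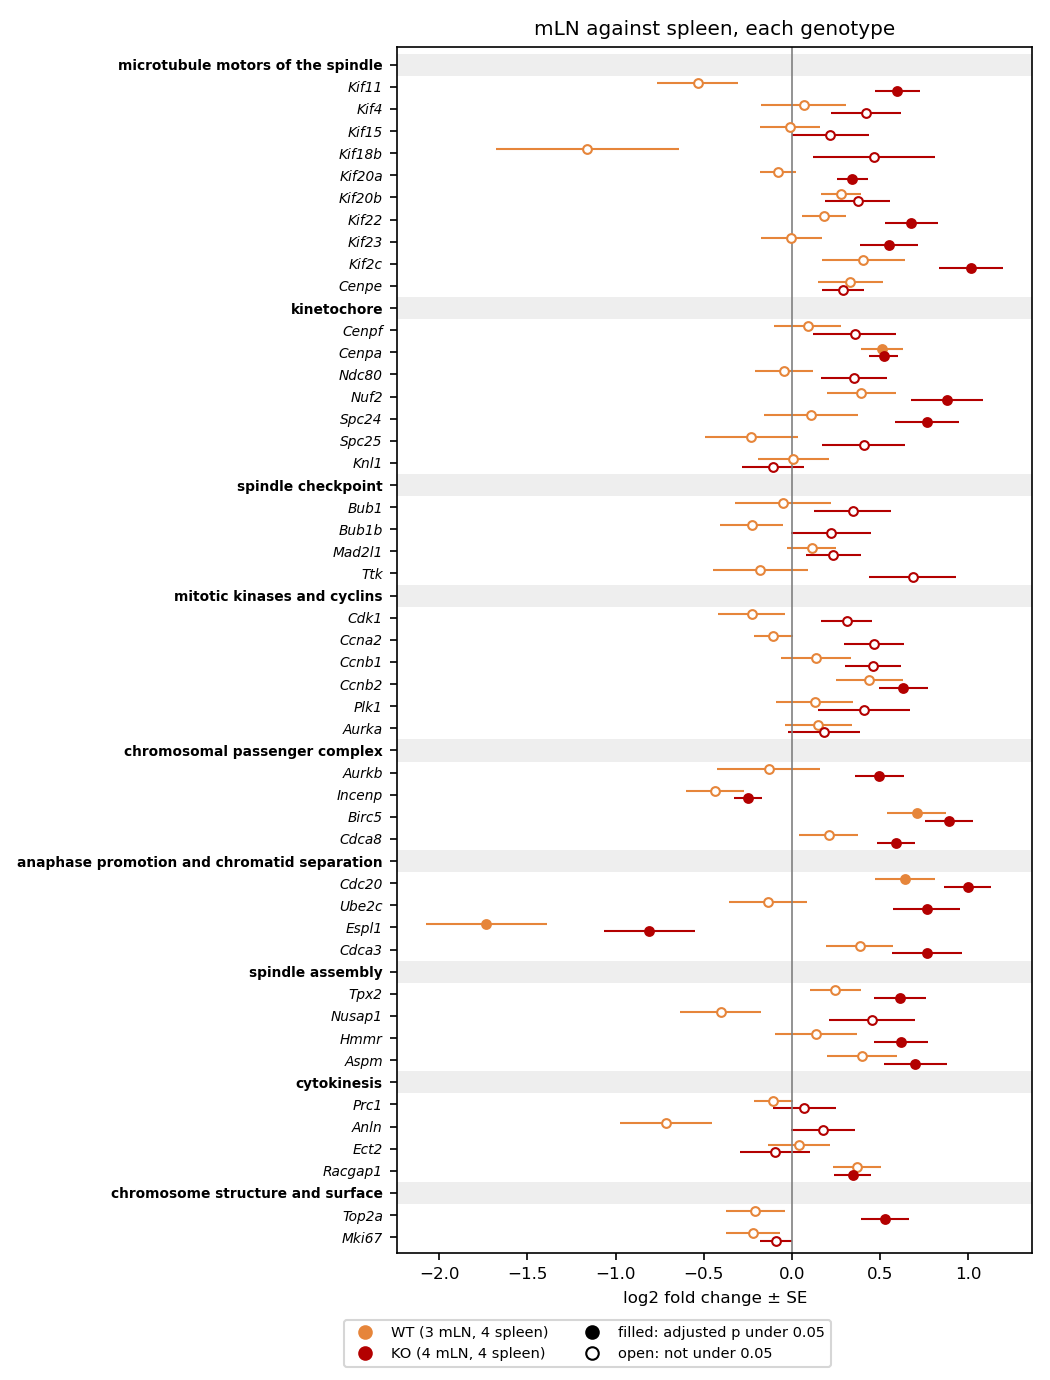
Log2 fold change with its SE of each mitosis gene, mLN against spleen, in WT (orange) and KO (red) T cells, grouped by role, with calls filled. In KO 20 genes are called higher and 2 lower in mLN, and in WT 3 higher and 1 lower.

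The paper reports more severe disease with more T cell infiltration in recipients of WT cells, and only mild inflammation in recipients of KO cells. Genotype and the disease of the recipient therefore cannot be told apart, in mLN or in spleen. Between the genotypes in mLN, 1 of the 45 genes passed the test, against 0.641% of all 14359 genes tested (0.348% higher and 0.292% lower). It was Kif11, the plus-end-directed kinesin that pushes the spindle poles apart. Of the 45 genes, 41 had a positive change, with a median of 0.31 beside −0.00 over all genes. An unadjusted p under 0.05 was found for 15 of the 45 genes and for 2253 of all 14359 genes. For 13 of the 45 every KO sample lay above every WT sample, as for 7.49% of all genes. None had every KO sample below, as 6.94% of all genes did. After Kif11 the smallest p belonged to Top2a, the topoisomerase that untangles sister chromatids, the cytokinesis kinesin Kif20a, Ube2c, which brings ubiquitin to the APC/C, and the spindle kinesin Kif15.

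Kif11 was at 37.7, 27.5 and 23.8 CPM in WT mLN and 58.8, 70.1, 54.3 and 68.0 CPM in KO mLN, with a wide gap between the groups (1.07 ± 0.17, adjusted p = 0.0326). In spleen Kif11 was at 45.3, 57.1, 45.4 and 29.1 CPM in WT and 51.7, 37.0, 36.6 and 40.9 CPM in KO, where the ranges overlapped. Against spleen, Kif11 rose in KO mLN (0.60 ± 0.13, 0.00521), and its change in WT was −0.53 ± 0.23 (0.132). The call between the genotypes was lost in 5 of the 7 fits that left out a sample, all but those without WT mLN 1 or KO mLN 1, with changes of 0.93 to 1.29 and adjusted p from 0.0141 to 0.136.

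Top2a was at 120, 86.5 and 114 CPM in WT mLN and 212, 145, 147 and 197 CPM in KO mLN, and at 133, 137, 144 and 94.6 CPM in WT spleen and 143, 109, 120 and 116 CPM in KO spleen. The mLN groups were apart, and the change was 0.70 ± 0.17 (adjusted p = 0.0924). Top2a passed the threshold with DESeq2, and with edgeR with no filter on low counts or with all 15 samples in 1 fit. Kif20a was at 43.8, 43.7 and 43.3 CPM in WT mLN and 61.1, 57.1, 56.3 and 55.9 CPM in KO mLN, with the smallest spread of any gene in both groups (0.39 ± 0.10, 0.12), and at 50.1, 51.8, 46.2 and 41.0 CPM in WT spleen and 50.8, 47.1, 42.9 and 41.3 CPM in KO spleen. Ube2c was at 15.5, 13.0 and 8.67 CPM in WT mLN and 20.5, 18.3, 17.5 and 31.5 CPM in KO mLN (0.81 ± 0.26, 0.184), with 12.4, 14.0, 17 and 12.5 CPM in WT spleen and 14.4, 13.8, 12.3 and 11.3 CPM in KO spleen. The KO mLN samples of these genes were above all others except for Kif15, which was at 23.4, 20.8 and 20.8 CPM in WT mLN and 35.0, 25.2, 27.3 and 38.2 CPM in KO mLN (0.53 ± 0.18, 0.198) but reached 28.2 CPM in WT spleen 3 and 37.5 CPM in KO spleen 3.

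In spleen none of the 45 genes passed the test between the genotypes, with edgeR or with DESeq2. Of all 14254 genes tested 1.3% passed (edgeR, 0.547% higher and 0.751% lower). An unadjusted p under 0.05 was found for 2 of the 45 genes and for 2924 of all genes. The groups overlapped for all 45, while 12% of all genes were apart, 5.68% higher and 6.31% lower in KO. The changes ran from −0.41 to 0.28 with a median of −0.10, 13 positive and 32 negative. The smallest p belonged to Ccna2, cyclin A2, which starts the drive into mitosis, with 48.9, 54.9, 48.1 and 40.5 CPM in WT spleen and 45.8, 31.6, 33.6 and 33.0 CPM in KO spleen (−0.41 ± 0.13, adjusted p = 0.128). KO spleen 1 alone reached the WT range of Ccna2, whose mLN samples were at 40.8, 45.2 and 44.5 CPM in WT and 46.0, 39.3, 45.9 and 67.5 CPM in KO.

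The next smallest p in spleen were those of the cytokinesis scaffold Anln, the kinetochore protein Cenpf, the spindle assembly factor Nusap1 and Mki67. Anln was at 9.73, 9.50, 7.49 and 10.6 CPM in WT spleen and 6.93, 7.78, 7.25 and 7.0 CPM in KO spleen (−0.35 ± 0.14, 0.198), and at 7.77, 4.15 and 4.58 CPM in WT mLN and 7.75, 6.33, 8.92 and 9.72 CPM in KO mLN. Cenpf was at 14.8, 19.6, 16.4 and 12.6 CPM in WT spleen and 12.3, 12.5, 11.7 and 14.8 CPM in KO spleen (−0.29 ± 0.15, 0.311), and at 12.9, 18.7 and 17.7 CPM in WT mLN and 11.6, 11.3, 17.9 and 24.9 CPM in KO mLN. Nusap1 was at 24.0, 34.0, 23.2 and 17.8 CPM in WT spleen and 25.9, 17.6, 15.2 and 16.5 CPM in KO spleen (−0.38 ± 0.21, 0.329), and at 22.7, 17.3 and 14.5 CPM in WT mLN and 34.1, 18.5, 18.0 and 31.8 CPM in KO mLN. The genotypes overlapped for all of these in both organs. WT spleen 3 and 4 were rich in erythroid markers, and without them the median change was −0.26 and still no gene passed.

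**Figure D5:**
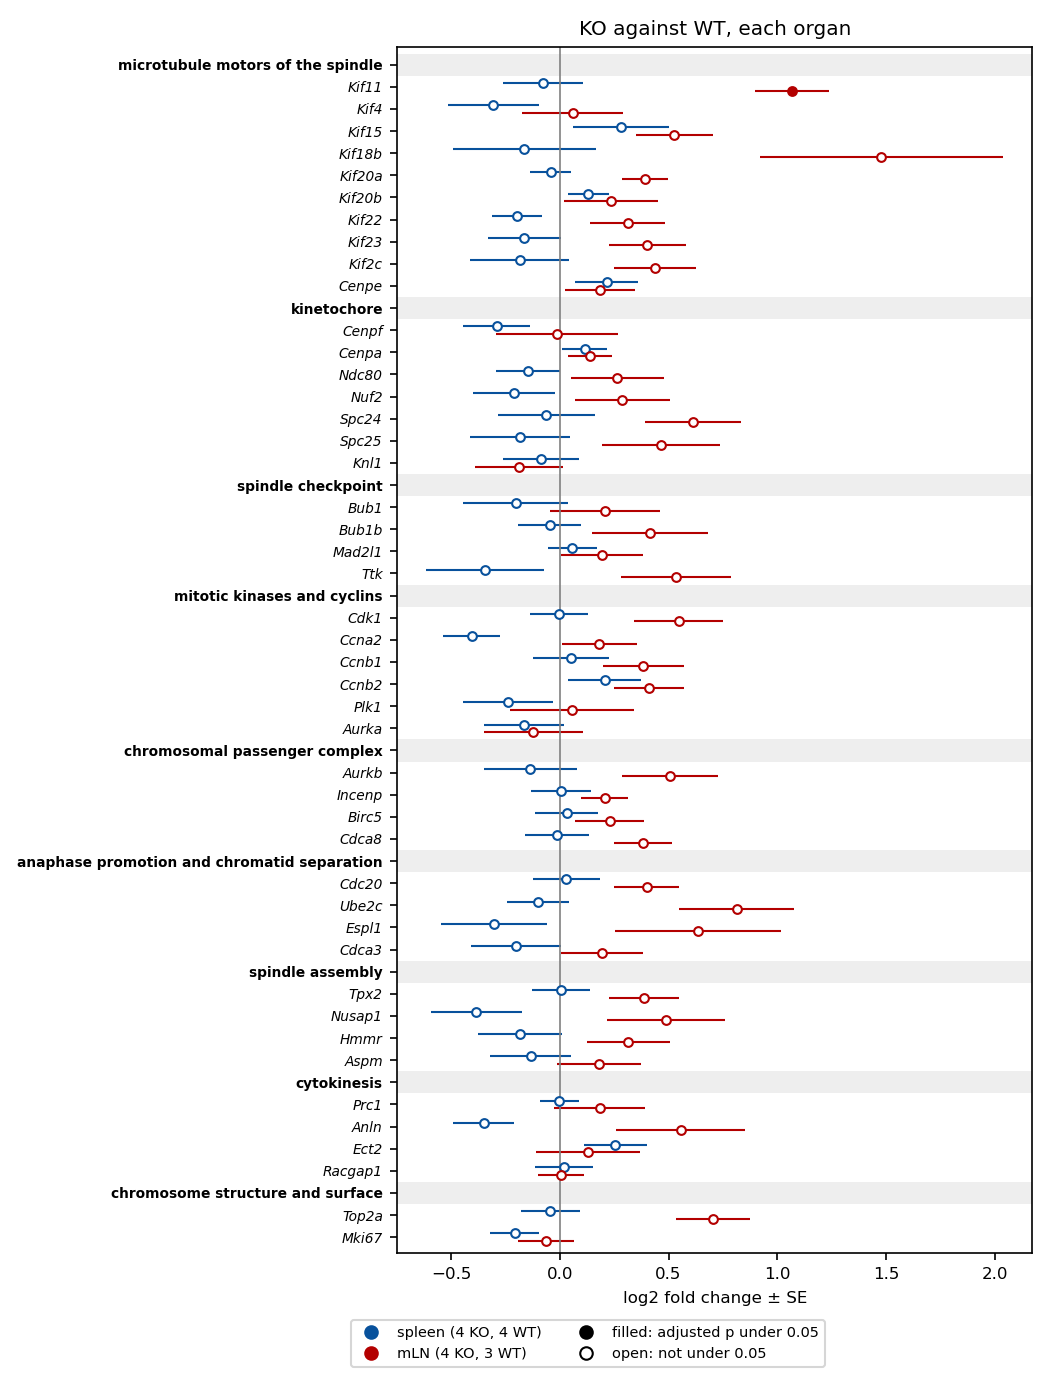
Log2 fold change with its SE of each mitosis gene, KO against WT, in spleen (blue) and mLN (red), grouped by role, with calls filled. Kif11 in mLN is the only call, and 41 genes lie above 0 in mLN against 13 in spleen.

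Whether the organ change differed between the genotypes was tested as an interaction in a fit of the 15 samples, and it passed for 0 of the 45 genes with edgeR and with DESeq2, and for 0% of all 15438 genes (edgeR). An unadjusted p under 0.05 was found for 13 of the 45 genes and 652 of all genes. The interaction was positive for 41 genes, with a median of 0.40 beside −0.01 over all genes, and the smallest p was that of Kif11 (1.14 ± 0.27, adjusted p = 0.825). The larger number of calls between the organs in KO is therefore not shown to differ from that in WT. The comparison between the genotypes in mLN shares its KO samples with the organ comparison in KO and its WT samples with that in WT.

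Among the microtubule motors, 5 of 10 passed the test between the organs in KO, all higher in mLN. In WT none passed under the main settings. Kif11 was called lower in WT mLN with the replicate block (−0.48 ± 0.16, adjusted p = 0.0453), with no filter on low counts and without WT spleen 4. Besides Kif11, Kif20a and Kif2c the motors called in KO were the chromosome-bound Kif22 (25.7 to 31.9 CPM in KO spleen, 34.6 to 57.2 in KO mLN, 0.68 ± 0.15) and Kif23 (14.4 to 22.4 and 23.3 to 34.2 CPM, 0.55 ± 0.16), the motor of the central spindle. Cenpe, which carries chromosomes to the metaphase plate, was at 31.0, 23, 26.8 and 27.2 CPM in KO spleen and 29.5, 37.1, 32.6 and 32.6 CPM in KO mLN (0.29 ± 0.12, adjusted p = 0.101), and at 25.4, 27.1, 23.7 and 17.6 CPM in WT spleen and 33.6, 23 and 29.5 CPM in WT mLN. Its groups overlapped in every comparison. Kif4, Kif15, Kif18b and Kif20b passed in no comparison. The fitted change of Kif18b between the genotypes in mLN, 1.48 ± 0.56 (0.241), was the largest of all 45, at 0.277 to 1.48 CPM in WT mLN and 1.80 to 3.37 CPM in KO mLN.

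Among the 7 kinetochore genes, Cenpa, Nuf2 and Spc24 rose in KO mLN, the latter pair being subunits of the NDC80 complex that grips the microtubule. Nuf2 ranged from 6.88 to 10.5 CPM in KO spleen and 10.9 to 18.9 CPM in KO mLN (0.88 ± 0.20), and Spc24 from 12.1 to 17.3 CPM and 18.4 to 31.3 CPM (0.77 ± 0.18). The other NDC80 subunits had changes of 0.35 ± 0.19 (Ndc80, adjusted p = 0.196) and 0.41 ± 0.23 (Spc25, 0.232), Cenpf 0.36 ± 0.24 (0.307) and the scaffold Knl1 −0.11 ± 0.17 (0.701). None of the 4 checkpoint genes passed in any comparison under the main settings. Ttk was called between the organs in KO with the replicate block, with all 15 samples in 1 fit and without KO spleen 1. Bub1, the checkpoint kinase, was at 12.8, 12.5, 11.1 and 6.12 CPM in WT spleen, 11.2, 10.5, 8.19 and 6.82 CPM in KO spleen, 10.7, 7.91 and 11.3 CPM in WT mLN and 7.93, 10.9, 12.5 and 15.2 CPM in KO mLN, overlapping throughout. Ttk, the kinase that starts the checkpoint, had the largest change of these between the organs in KO (0.68 ± 0.25, 0.0652), and Bub1b and Mad2l1 had 0.22 ± 0.23 and 0.24 ± 0.16.

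Of the 6 mitotic kinases and cyclins, only Ccnb2 passed, between the organs in KO (83.2 to 103 CPM in KO spleen, 113 to 192 in KO mLN, 0.63 ± 0.14, adjusted p = 0.00677). Cdk1 was at 18.0, 18.7, 22.4 and 16 CPM in WT spleen, 20.5, 17.4, 19.7 and 16.8 CPM in KO spleen, 17, 18.2 and 11.8 CPM in WT mLN and 24.4, 17.8, 25.5 and 24.4 CPM in KO mLN. KO mLN 2 alone kept Cdk1 of KO mLN within the range of the other groups, and its changes were 0.31 ± 0.14 (0.139) between the organs in KO and 0.55 ± 0.20 (0.232) between the genotypes in mLN. Ccnb1, the partner cyclin of CDK1 at mitotic entry, was at 19.8, 22, 16.5 and 11.9 CPM in WT spleen, 20.8, 17.2, 16.5 and 17.5 CPM in KO spleen, 19.5, 18.7 and 18.1 CPM in WT mLN and 24.8, 23, 19.2 and 31.8 CPM in KO mLN. It missed the threshold between the organs in KO (0.46 ± 0.16, 0.0548), as did Ccna2 (0.47 ± 0.17, 0.0653), while both passed there with DESeq2. Plk1, the polo-like kinase, was at 16.5, 21.6, 15.7 and 11.6 CPM in WT spleen, 18.8, 11.5, 12.0 and 12.7 CPM in KO spleen, 19.0, 13.6 and 19.5 CPM in WT mLN and 20.3, 13.4, 11.8 and 27.3 CPM in KO mLN. Its KO mLN samples were spread over the whole range of the other groups (0.41 ± 0.26, 0.284), and Aurka had 0.18 ± 0.21 (0.559).

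All 4 genes of the chromosomal passenger complex, which corrects wrong attachments, passed between the organs in KO, Aurkb, Birc5 and Cdca8 higher in mLN and Incenp lower. Aurkb, its kinase, was at 18.5, 16.4, 13.4 and 14.4 CPM in KO spleen and 24.6, 21.3, 19.8 and 22.4 CPM in KO mLN, without overlap (0.50 ± 0.14, adjusted p = 0.022), and at 15.3, 25.3, 17.6 and 11.3 CPM in WT spleen and 14.3, 11 and 20.9 CPM in WT mLN. All 4 genes listed here under anaphase promotion and chromatid separation also passed, Cdc20, Ube2c and Cdca3 higher in KO mLN and Espl1 lower. Ube2c changed by 0.76 ± 0.19 (0.0125) and Cdca3 by 0.77 ± 0.20 (0.0152), from 10.6 to 18.5 CPM in KO spleen and 21 to 31.9 CPM in KO mLN. Of the spindle assembly genes Tpx2, Hmmr and Aspm rose in KO mLN (0.61 ± 0.15, 0.62 ± 0.15 and 0.70 ± 0.18), and Nusap1 had 0.45 ± 0.24 (0.198).

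Of the 4 cytokinesis genes only Racgap1, a subunit of centralspindlin, passed between the organs in KO (92.0 to 129 CPM in spleen, 126 to 161 in mLN, 0.35 ± 0.10, adjusted p = 0.0317), and its WT change was of the same size (0.37 ± 0.14, 0.0854). Prc1, which bundles the microtubules of the central spindle, had 0.07 ± 0.18 (0.813), Ect2 −0.10 ± 0.20 (0.766) and Anln 0.18 ± 0.18 (0.517). Top2a rose in KO mLN (0.53 ± 0.14, 0.0152), but Mki67, which coats mitotic chromosomes and is the usual marker of dividing cells, passed in no comparison. Mki67 was at 131, 127, 136 and 94.8 CPM in WT spleen, 115, 101, 105 and 97.7 CPM in KO spleen, 120, 87.7 and 98.4 CPM in WT mLN and 105, 85.1, 104 and 99.6 CPM in KO mLN. Its changes were −0.09 ± 0.09 (0.494) between the organs in KO, −0.22 ± 0.15 (0.347) in WT, −0.06 ± 0.13 (0.853) between the genotypes in mLN and −0.21 ± 0.11 (0.335) in spleen, and the groups overlapped each time.

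Other genes of the cell cycle were read for comparison. Beside their counts between the organs stand the shares over all genes tested. In KO 11.4% were higher and 13.9% lower in mLN, and in WT 9.7% were higher and 10.8% lower. Of 65 other mitosis genes, 16 were higher and 2 lower in KO mLN than in KO spleen (median 0.28), led by Zwilch, a kinetochore protein that recruits dynein (1.26 ± 0.20, adjusted p = 0.0011), and on the lower side by Pkmyt1, an inhibitory kinase of CDK1 (−0.52 ± 0.12, 0.0074). In WT 2 were higher, led by the CDK subunit Cks1b (0.60 ± 0.13, 0.0122), and 4 lower, led by Mastl, the Greatwall kinase (−1.47 ± 0.25, 0.00417). Between the genotypes 53 of the 65 had a positive change in mLN and 29 in spleen, and none passed in either.

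Of 44 genes of DNA replication, 13 were higher and 2 lower in KO mLN than in KO spleen (median 0.28), led by the primase subunit Prim1 (0.71 ± 0.12, 0.00149) and Gins2 of the replicative helicase (−0.52 ± 0.09, 0.00181). In WT 1 was higher, the licensing factor Cdt1 (0.52 ± 0.11, 0.011), and 2 lower, led by the polymerase subunit Pold1 (−0.66 ± 0.15, 0.0129). Between the genotypes in mLN none passed, with 39 of 44 positive and a median of 0.31, as for the mitosis genes. In KO mLN Mcm2 (−0.23 ± 0.10, 0.138) and Pcna (0.32 ± 0.13, 0.0967) did not pass.

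Of 24 transcriptional regulators of the cell cycle, none passed between the genotypes. Foxm1 was at 5.86, 7.37, 4.17 and 2.81 CPM in WT spleen, 5.15, 4.83, 3.76 and 4.34 CPM in KO spleen, 3.79, 3.07 and 0.598 CPM in WT mLN and 4.50, 3.58, 0.892 and 6.51 CPM in KO mLN, with the widest spread in mLN, and did not differ past the threshold between the organs of KO (−0.21 ± 0.43, adjusted p = 0.758). Mybl2, the gene of B-Myb, had 0.10 ± 0.21 (0.784) there. Rbl2, the p130 pocket protein of the DREAM complex, was lower in KO mLN than in KO spleen (442 to 504 against 515 to 587 CPM, −0.23 ± 0.07, 0.0273), and in WT mLN had 313 to 393 against 401 to 638 CPM (−0.48 ± 0.16, 0.0661). Trp53 rose in mLN in both genotypes (0.62 ± 0.08, 0.000296 in KO and 0.66 ± 0.09, 0.00126 in WT), and so did Lin37, a subunit of the MuvB core (0.40 ± 0.09, 0.00665 and 0.34 ± 0.09, 0.0214), while E2f2 fell (−0.37 ± 0.12, 0.0376 and −0.47 ± 0.13, 0.0325).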

How the data were processed

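CD4+ T cells of 15 samples were profiled by single-end mRNA sequencing. The authors aligned the reads with STAR 2.6.1a to GRCm38 with GENCODE M23 and deposited counts per gene, raw and without normalization, whose strand is not stated. Symbols, exon lengths and coordinates came from GENCODE M21 on the same build, and promoter windows from RefSeq. Levels are CPM, counts scaled to a total of 1000000 reads on genes. Each pair of groups was tested with edgeR 4.0.16 in R 4.3.3 (filter on low counts, TMM, quasi-likelihood test, Benjamini-Hochberg adjustment over all genes tested, called at an adjusted p under 0.05 with no fold minimum), with only its own samples, and the interaction with all 15. SEs were taken from the F statistic. The procedure was tested on simulated counts. DESeq2 1.42.0, other scalings and filters, a fold minimum, a shared fit, a replicate block and leaving out each sample were alternatives. Leaving out erythroid-rich libraries was added after the marker levels were seen. The block kept only samples whose replicate number had a partner, and so left out WT spleen 3 or KO mLN 3 where the partner was missing.

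Replicate numbers come from the labels, which do not tie them to a mouse, so that p-values measure the spread between these samples. The numbers paired the WT organs, where the deviations of same-numbered samples from their group means correlated by 0.264 to 0.336 (across genes, other pairs −0.234 to 0.0217). In the KO organs all same-numbered correlations were positive but weaker (0.0459 to 0.275, other pairs −0.157 to 0.0736), and the numbers did not pair the genotypes. The main organ tests did not use the numbers, which the block did. In its T cell receptor analysis the paper compared spleen and mLN of each mouse. Genes described with values by sample are 13 fixed by name and the 5 with the smallest p in each comparison. The members and lists were chosen with earlier results of these data known. Reads carry no molecular identifiers.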

Additional observations from a re-analysis of the deposited data

Results flagged for a closer look

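In 8 of 138 groups of 4 samples tested (the summed level and the 45 genes, in the 3 groups with 4 samples), 1 sample lay far from the others by Dixon's criterion, which chance passes in about 5% of groups. KO spleen 1 lay above the rest of its group for the summed level (1578 CPM against 1368 to 1384), Ccna2 (45.8 CPM against 31.6 to 33.6), Plk1 (18.8 CPM against 11.5 to 12.7) and Kif2c (13.4 CPM against 9.12 to 9.51). In WT spleen, Kif4 was low in sample 4 (11.8 CPM against 20.6 to 21.5) and Cdca3 high in sample 2 (22.9 CPM against 14.1 to 15.5). In KO mLN, Cdk1 was low in sample 2 (17.8 CPM against 24.4 to 25.5) and Hmmr in sample 1 (20.3 CPM against 25.2 to 25.6).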

How the results depend on the processing

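Between the genotypes in mLN, where 1 was called, 2 were called with DESeq2 (Kif11 and Top2a) and 4 with no filter on low counts (also Ccnb2 and Ube2c). With all 15 samples in 1 fit 3 were called (Kif11, Kif20a and Top2a), with the replicate block 0 (Kif11 1.16, adjusted p = 0.108) and with each sample left out 0 to 1. The block also left out KO mLN 3, and without KO mLN 3 and with no block Kif11 was not called either. In spleen 1 was called with no filter (Ccna2) and 0 under all other settings. Between the organs in WT, where 4 were called, 8 were called with no filter, 7 in the shared fit, 8 with the replicate block, 1 with a fold minimum of 1 (log2), 1 without the erythroid-rich libraries, and 1 to 6 with each sample left out. In KO, where 22 were called, 1 (Kif2c) passed the fold minimum, and 16 to 23 were called with each sample left out. With the block 24 were called, which lost Incenp (adjusted p = 0.0506) and gained Ttk (0.0322), Ccna2 (0.0426) and Ccnb1 (0.0433). DESeq2 also called 24, with Ccna2 and Ccnb1 gained. The shared fit called 21, losing Aurkb, Incenp and Espl1 and gaining Ttk and Ccna2. With no filter 22 were called, with Incenp lost and Ccna2 gained. The interaction had 2 calls with no filter (Kif11 and Top2a) and 0 otherwise. Outside the WT organs the numbers did not meet the criterion for pairing. Same-numbered correlations were 0.0459 to 0.275 in the KO organs, −0.246 to 0.121 between the genotypes in spleen and −0.0472 to 0.00435 in mLN. In the KO organs every sample but KO mLN 3 correlated best with its own number, so that a pairing of these samples is not excluded. The median change moved by less than the spread between replicates under all settings, and no called gene turned its direction. The causes were not tested. Low counts limit Kif18b most, with 3 counts in 1 library.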

Other observations

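Of 16 condensin and cohesin genes, 3 were higher in KO mLN, led by the condensin subunit Ncaph2 (0.26 ± 0.06, edgeR adjusted p = 0.00931), and 1 lower, the cohesin subunit Rad21 (−0.58 ± 0.07, 0.000146), the substrate of separase. Rad21 was at 127 to 147 CPM in KO mLN against 198 to 219 in KO spleen, and at 119 to 155 CPM in WT mLN against 192 to 220 in WT spleen, and so fell in mLN in both genotypes (WT −0.58 ± 0.11, 0.00667), as Espl1 did. Of 17 genes of the APC/C and its activators, 2 were higher in KO mLN, led by the subunit Cdc26 (0.44 ± 0.10, 0.00927). Over all genes tested 11.4% were higher and 13.9% lower in KO mLN, and 9.7% higher and 10.8% lower in WT mLN. In WT, Cdc26 was higher (0.51 ± 0.12, 0.0203) and the activator Fzr1 lower in mLN (−0.34 ± 0.10, 0.0438).

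Of 10 G1 cyclins, kinases and their regulators, 3 were higher in KO mLN, led by Ccnd1 (1.28 ± 0.30, 0.00873), with 13 to 32 counts in KO spleen and 44 to 55 in KO mLN, and 1 lower, Ccnd3, a D-type cyclin abundant in lymphocytes (−0.44 ± 0.09, 0.00401). In WT, 1 was lower, Skp2 (−0.59 ± 0.18, 0.044). Ccnd2 had −0.13 ± 0.11 (0.424) in KO and −0.08 ± 0.14 (0.742) in WT. Of 8 cyclin-dependent kinase inhibitors, 7 were tested and 2 were higher in KO mLN, Cdkn3 (0.57 ± 0.18, 0.0347) and Cdkn2c (0.47 ± 0.15, 0.0347). Between the genotypes none of these passed. Cdkn1b, the gene of p27, was at 82.2 to 114 CPM in KO mLN and 126 to 143 CPM in WT mLN, without overlap (−0.51 ± 0.13, 0.1), and Cdkn1a had 0.97 ± 0.38 (0.251) in mLN and 1.14 ± 0.43 (0.174) in spleen.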
